A study of Mus musculus with 12 samples.

Results

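The Zfp genes of the mouse encode zinc-finger proteins, and expression of those that the arrays named and detected was followed through the reversion of post-implantation epiblast cells to an ES-like state. The members were the probes whose only gene symbol is Zfp followed by digits, without Zfp42, a marker of undifferentiated cells. A member also had a deposited signal-to-noise (S/N) score of 3 or more, taken as detection, on all 3 arrays of at least 1 group. That gave 177 probes for 172 genes, of 217 such Zfp probes for 208 genes on an array of 33012 probes, and 15235 probes of any gene met the same detection rule. The S/N scores chose the members. So the number of members detected in each group is given as a description, and changes were tested on the 118 Zfp probes detected on all 12 arrays, beside the 9595 probes of any gene detected on all 12. Just inside the rule lay Zfp467 and Zfp870, whose lowest S/N score in their best group was 3.0, and Zfp13 at 3.5. Just outside lay Zfp708 at 2.84, Zfp709 at 2.53 and Zfp316 at 2.5.

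Each of 4 groups was measured on 3 Applied Biosystems 1-colour arrays. cEpi is cultured epiblast, dissected from embryos of embryonic days 5.5 to 7.5. The rEpiES cells are ES-like cells reprogrammed from such epiblast, sampled at passage 4 (P4) and passage 24 (P24), and ES are embryonic stem cells. Per the labels, the fathers of the embryos carried the Oct4-△PE-EGFP transgene and the mothers were of strain 129/sv or ROSA 129/Sv, a statement made for the ES arrays too. The reporter is an Oct4 promoter that lacks its proximal enhancer and is active in naive but not in primed pluripotent cells. The rEpiES cells grew in 20% serum with 1000 units of LIF per ml on mitomycin-treated embryonic fibroblasts, and were picked from colonies in which GFP-positive cells had appeared after 14 to 35 days. The rEpiES samples are therefore a reporter-selected population. The culture of cEpi and ES is not described, and it is not stated if replicate arrays were hybridised with RNA of independent cultures. The p-values therefore reflect array-to-array spread, which may be technical.

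Zinc fingers of the C2H2 type bind DNA or RNA through short repeated units held by a zinc ion, and Zfp is the mouse prefix for many genes of this class with no other name. Many mouse Zfp genes encode KRAB zinc-finger proteins, which recruit the corepressor Trim28 and with it a histone methyltransferase, silencing endogenous retroviruses and protecting imprinted loci in ES cells. Others act in RNA decay, splicing or ribosome quality control, and many have no known function. The genes lie largely in clusters that arose by duplication.

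The arrays detected 12061 to 16537 probes each, with 15726 to 16537 on cEpi, 14329 to 15034 on P4, 14422 to 15637 on P24 and 12061 to 13827 on ES arrays. The median SD between the arrays of a group was 0.24 on the log2 scale in ES, 0.087 in cEpi, 0.103 in P4 and 0.113 in P24. Of 12 naive pluripotency markers 9 had a named probe, and their summed signal was 35000 to 38900 in cEpi, 560000 to 607000 in P4, 647000 to 668000 in P24 and 418000 to 444000 in ES, in units of the back-transformed normalised signal. Tcl1 and Tfcp2l1 of that list were not detected on any cEpi array. The summed signal of the 8 post-implantation epiblast markers did not set cEpi apart. It was 647000 to 667000 in cEpi, 281000 to 295000 in P4, 457000 to 482000 in P24 and 782000 to 918000 in ES. Gene by gene, 4 of them were higher and 4 lower in cEpi than in ES (limma, adjusted p under 0.05). Of all probes detected on all arrays, 33.2% were higher and 40.2% lower. All 12 feeder fibroblast markers were detected in cEpi, where their summed signal was 1460000 to 1490000, against 273000 to 281000 in P4, 178000 to 182000 in P24 and 242000 to 375000 in ES. The 9 primitive and visceral endoderm markers summed to 133000 to 145000 in cEpi, 9800 to 11400 in P4, 4180 to 4990 in P24 and 26400 to 32300 in ES, with Afp and Apoa1 not detected in cEpi. These values moved with every cEpi comparison below, and their part in the Zfp results was not tested. In bulk RNA, fewer cells of a type and less RNA per cell cannot be told apart.

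Of the 177 members, 163 were detected on all 3 cEpi arrays, 152 on all P4, 155 on all P24 and 129 on all ES arrays, or 92.1%, 85.9%, 87.6% and 72.9%. Over all 15235 probes the shares were 92.0%, 82.2%, 82.9% and 67.5%. Besides the 118 probes detected everywhere, 20 were detected in full in every group except ES and 14 in full in cEpi alone. The lower detection in ES thus ran through the whole array and not through the Zfp genes alone.

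The 118 Zfp probes detected on all arrays stood lower in cEpi, relative to all probes, and highest in ES. The other 59 members were detected in only some groups, among them 20 in full in every group except ES and 14 in full in cEpi alone. The direction of their changes thus follows in part from the rule that chose them, and is not set against that of the 118. Their median log2 change, given as a description, was 0.71 for cEpi minus ES, with 37 positive and 22 negative. It was 0.16 for P4 minus ES and 0.4 for P24 minus ES. Over all 177 members, these 59 included, the median for cEpi minus ES was -0.34. The median log2 change of the 118 probes, cEpi minus ES, was -0.52, against -0.07 for the 9595 probes detected on all arrays. It was 0.22 against 0.07 for P4 minus cEpi and 0.32 against 0.07 for P24 minus cEpi. For P4 minus ES it was -0.34 against -0.06, for P24 minus ES -0.22 against -0.09, and for P24 minus P4 0.21 against 0.00. These values rest on the authors' quantile normalisation, which gives all arrays one distribution. When the deposited signal was scaled to the array median, the median of all probes was 0.54 for cEpi minus ES, and that of the Zfp probes 0.17, so the sign of the Zfp median turned. The gap between Zfp probes and all probes kept its sign with quantile normalisation and with median scaling in all 6 comparisons. The plot of medians shows this. Median scaling shifts all probes of an array alike, so the gap with the signal as deposited is the same by construction. For cEpi minus ES this gap was -0.45 with quantile normalisation, -0.37 with median scaling and -0.37 with the signal as deposited. For P24 minus cEpi it was 0.25, 0.21 and 0.21, and for P24 minus P4 0.21, 0.19 and 0.19. For P4 minus cEpi it was 0.15, 0.07 and 0.07, for P4 minus ES -0.28, -0.22 and -0.22, and for P24 minus ES -0.13, -0.08 and -0.08. Only P4 minus cEpi and P24 minus ES compare groups whose deposited files share a layout, as set out below.

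**Figure D1:**
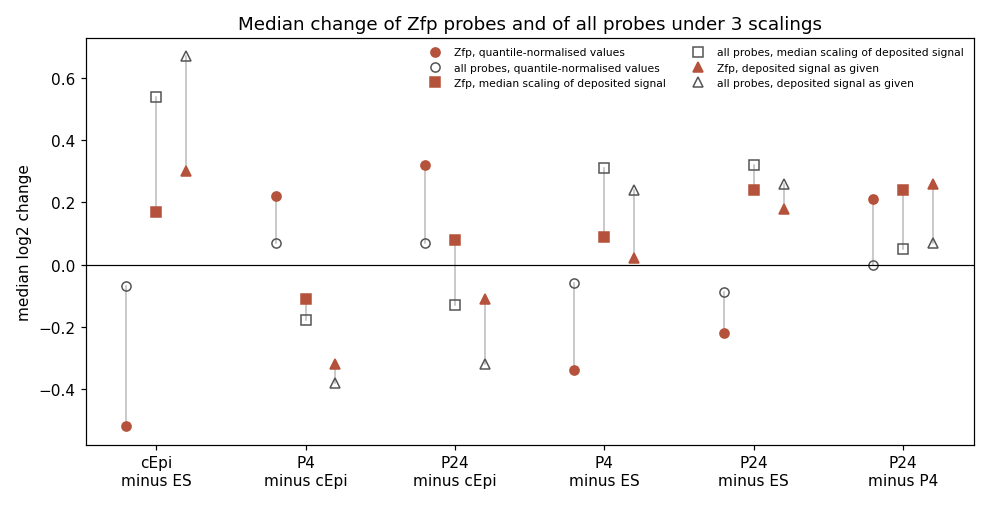
Median log2 change of the 118 Zfp probes (filled) and of all 9595 probes detected on all 12 arrays (open) in 6 comparisons, with quantile-normalised values (circles), median-scaled signal (squares) and signal as deposited (triangles). The filled symbols lie below the open ones in the 3 comparisons with ES and above them in the other 3, while both shift with the scaling.

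Large shifts from epiblast to reprogrammed cells went both ways, with Zfp979, a gene of chromosome 4 without an assigned function, first among the rises and Zfp503 and Zfp358 among the falls. The log2 normalised signal of Zfp979 was 12.79, 12.7 and 12.72 on the cEpi arrays, 16.48, 16.43 and 16.53 in P4, 16.73, 16.7 and 16.56 in P24 and 16.47, 16.54 and 16.33 in ES. The cEpi arrays lay far below the other 9, which spanned less than 1 log2 unit. The change was 3.74 ± 0.08 (SE) for P4 minus cEpi, or 13.4-fold (limma, Benjamini-Hochberg adjusted p = 6.97e-10), and 3.93 ± 0.08 for P24 minus cEpi, or 15.2-fold (adjusted p = 1.77e-10). P4 minus ES was 0.04 ± 0.08 and did not pass the test (adjusted p = 0.721). Zfp992 was at 16.32, 16.06 and 16.37 in cEpi, 18.62, 18.77 and 18.98 in P4, 18.98, 19.11 and 18.54 in P24 and 19.01, 18.84 and 19.18 in ES. It too separated cEpi from the other groups, which overlapped each other. P24 minus cEpi was 2.63 ± 0.16 (adjusted p = 3.66e-07).

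Zfp296, a pluripotency-associated factor known to promote the formation of induced pluripotent stem cells, behaved alike. It was at 12.65, 12.66 and 12.72 in cEpi, 14.99, 14.88 and 15.07 in P4, 15.31, 15.13 and 15.21 in P24 and 14.91, 14.86 and 15.0 in ES. P24 lay above all arrays of the other groups and cEpi below all of them. P24 minus cEpi was 2.54 ± 0.07 (adjusted p = 2.02e-09), and P24 minus ES 0.29 ± 0.07 (adjusted p = 0.00729). Zfp473, whose human counterpart takes part in histone mRNA processing, averaged 10.02 ± 0.1 in cEpi, 11.76 ± 0.14 in P4, 12.22 ± 0.1 in P24 and 11.89 ± 0.21 in ES (SD, n = 3 each). Zfp975 averaged 13.91 ± 0.22 in cEpi, 15.43 ± 0.2 in P4, 15.89 ± 0.35 in P24 and 15.86 ± 0.23 in ES. Zfp934 rose in 2 steps, at 13.09 ± 0.11 in cEpi, 14.45 ± 0.07 in P4 and 15.23 ± 0.23 in P24, against 15.17 ± 0.07 in ES. P24 minus P4 was 0.78 ± 0.11 for Zfp934 (adjusted p = 0.000545), and P24 minus ES 0.06 ± 0.11 (adjusted p = 0.652).

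Opposite to these, a smaller set was highest in epiblast. Zfp503, a transcriptional repressor of developing forebrain and limb, was at 13.3, 13.25 and 13.17 in cEpi, 11.7, 11.57 and 11.4 in P4, 10.05, 10.29 and 10.17 in P24 and 11.52, 12.4 and 11.52 in ES. All cEpi arrays were above and all P24 arrays below those of the other groups, while P4 and ES overlapped. P24 minus cEpi was -3.07 ± 0.21 (8.39-fold lower, adjusted p = 7e-07), P24 minus P4 -1.39 ± 0.21 (adjusted p = 0.000711) and P24 minus ES -1.64 ± 0.21 (adjusted p = 8.81e-05). Zfp358 was at 15.48, 15.43 and 15.36 in cEpi, 13.39, 13.28 and 13.38 in P4, 12.87, 12.93 and 12.81 in P24 and 13.34, 13.21 and 13.15 in ES. Only cEpi stood far from the rest, and P24 minus cEpi was -2.55 ± 0.07 (adjusted p = 1.45e-09). P24 minus ES was -0.36 ± 0.07 for Zfp358 (adjusted p = 0.00153), a sign that turned with median scaling (0.09). Zfp768, Zfp282 and Zfp386 fell by 2.11, 1.72 and 1.63 on the log2 scale in P24 relative to cEpi. The human counterpart of Zfp768 binds interspersed repeats.

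**Figure D2:**
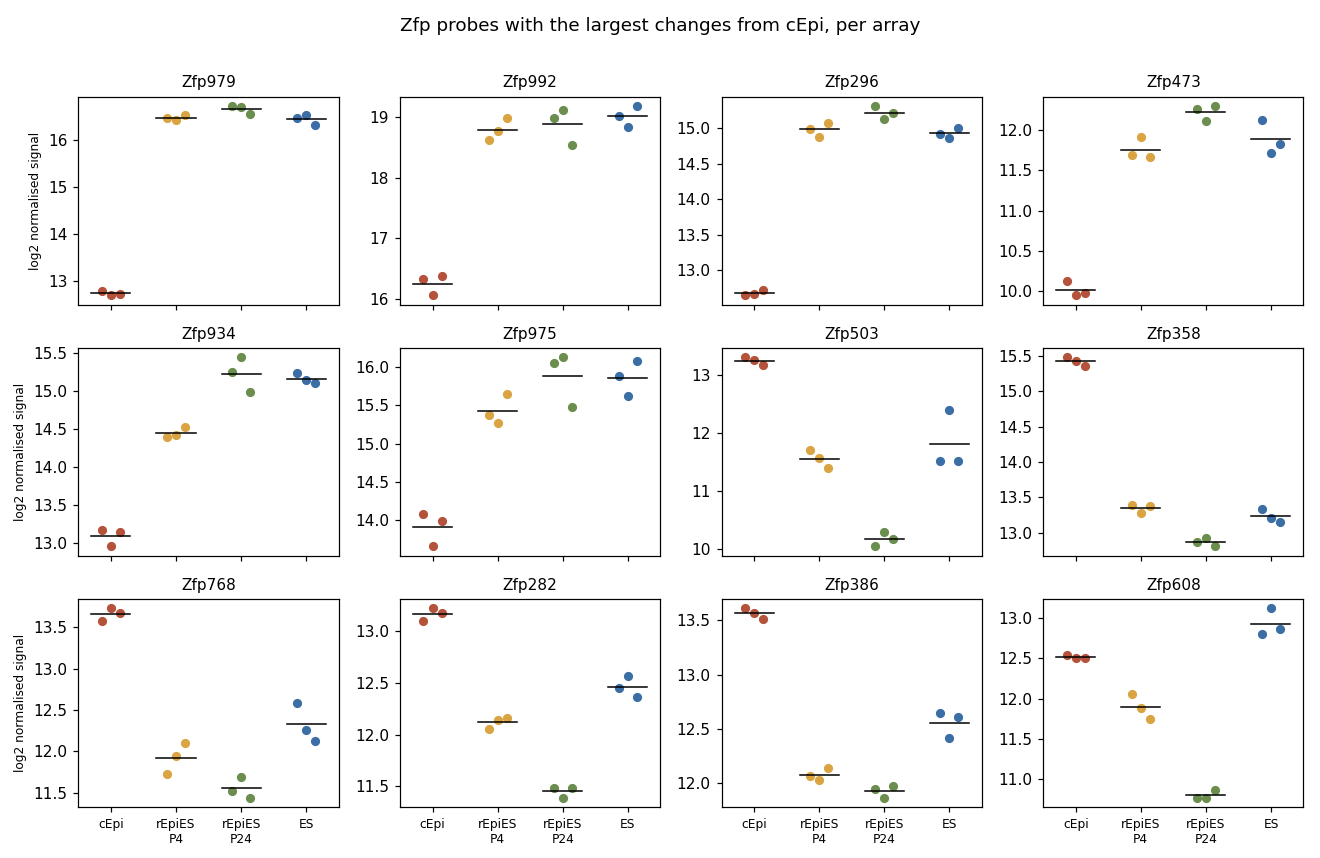
Log2 normalised signal (vertical axes, a separate scale for each gene) of 12 Zfp probes on every array of cEpi, rEpiES P4, rEpiES P24 and ES, with points for arrays and lines for group means. In the first 6 panels the cEpi arrays lie below all others. For Zfp503, Zfp358, Zfp768, Zfp282 and Zfp386 they lie above all others, while Zfp608 is lowest in P24.

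Promoter sequence is shown for 3 genes that rose and 2 that fell, since the composition of this window was set against the change between cEpi and P24. Zfp296 is included as a gene that rose with a window rich in G and C. The RefSeq windows run from 250 bases before to 50 bases after the annotated start (build GRCm38.p6), and 141 of the 172 member genes had one. Zfp979 lies at chr4:147642459-147642758 on the minus strand, Zfp975 at chr7:42692669-42692968 on the minus strand, Zfp296 at chr7:19577037-19577336 on the plus strand, Zfp503 at chr14:21989552-21989851 on the minus strand and Zfp358 at chr8:3492888-3493187 on the plus strand. Capitals mark the NFY motif CCAAT on either strand in Zfp979 and Zfp975, and the octamer motif ATTTGCAT and the E-box CACGTG in Zfp296.
Zfp979: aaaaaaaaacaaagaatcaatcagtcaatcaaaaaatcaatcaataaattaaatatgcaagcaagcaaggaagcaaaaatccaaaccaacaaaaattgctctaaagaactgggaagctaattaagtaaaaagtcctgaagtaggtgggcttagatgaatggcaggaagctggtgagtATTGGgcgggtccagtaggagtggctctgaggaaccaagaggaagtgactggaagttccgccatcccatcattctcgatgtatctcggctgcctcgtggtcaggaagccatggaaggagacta
Zfp975: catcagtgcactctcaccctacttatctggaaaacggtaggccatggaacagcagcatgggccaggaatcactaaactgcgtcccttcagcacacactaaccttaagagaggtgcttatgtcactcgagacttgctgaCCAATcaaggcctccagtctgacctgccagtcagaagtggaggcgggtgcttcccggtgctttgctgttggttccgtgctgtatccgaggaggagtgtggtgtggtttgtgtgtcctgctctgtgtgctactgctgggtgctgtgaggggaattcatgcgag
Zfp296: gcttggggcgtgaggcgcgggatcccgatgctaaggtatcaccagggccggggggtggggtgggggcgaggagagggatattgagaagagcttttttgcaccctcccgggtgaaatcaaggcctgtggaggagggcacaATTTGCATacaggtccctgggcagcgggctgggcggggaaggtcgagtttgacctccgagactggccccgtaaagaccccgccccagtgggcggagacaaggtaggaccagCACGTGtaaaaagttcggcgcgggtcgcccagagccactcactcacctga
Zfp503: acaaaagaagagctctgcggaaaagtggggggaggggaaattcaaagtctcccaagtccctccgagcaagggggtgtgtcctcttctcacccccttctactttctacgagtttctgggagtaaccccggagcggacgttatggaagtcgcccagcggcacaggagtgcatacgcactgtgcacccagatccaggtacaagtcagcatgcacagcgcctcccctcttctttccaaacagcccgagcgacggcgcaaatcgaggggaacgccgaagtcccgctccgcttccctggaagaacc
Zfp358: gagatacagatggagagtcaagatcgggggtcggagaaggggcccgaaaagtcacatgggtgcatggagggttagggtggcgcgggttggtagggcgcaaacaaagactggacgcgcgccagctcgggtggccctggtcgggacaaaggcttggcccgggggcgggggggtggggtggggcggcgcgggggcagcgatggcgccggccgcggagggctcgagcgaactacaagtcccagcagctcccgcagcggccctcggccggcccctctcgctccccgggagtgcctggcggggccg
The Zfp979 window is 42.3% G and C with 5 CpG dinucleotides, that of Zfp975 54.3% with 8 and that of Zfp296 63.3% with 19. The windows of Zfp503 and Zfp358, which were highest in cEpi, are 58.3% and 72.0% G and C with 19 and 31 CpG dinucleotides. Over the 141 Zfp windows the median was 55.3% with 16 CpG dinucleotides, against 61.7% with 22 for the 7202 genes with a tested probe.

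Across the 96 Zfp genes with a window and a probe detected on all arrays, the log2 change P24 minus cEpi ran against G and C content, with a Spearman correlation of -0.33, beside -0.09 over 5019 probes of any gene. The correlation was -0.32 for P24 minus P4 and -0.32 for P24 minus ES, and weaker for P4 minus cEpi (-0.22), cEpi minus ES (0.15) and P4 minus ES (-0.06). These are correlations across genes that share arrays and base composition. Of the 32 genes with the lowest content, 36.7% to 52.7%, 22 rose and 2 fell in P24 relative to cEpi (median change 0.57). Of the 700 probes of any gene with content in that range, 43.3% rose and 30.3% fell (median 0.16). Of the 32 with the highest, 59.7% to 81.7%, 14 rose and 10 fell (median 0.17), beside 39.8% and 37.6% of 3083 probes of any gene (median 0.03). For P24 minus P4 the median change was 0.35 in the genes of lowest content and 0.01 in those of highest content. Several genes with windows rich in G and C rose, among them Zfp296, Zfp473 (65.7%, change 2.2), Zfp131 (77.7%, change 1.53) and Zfp326 (71.3%, change 1.49).

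**Figure D3:**
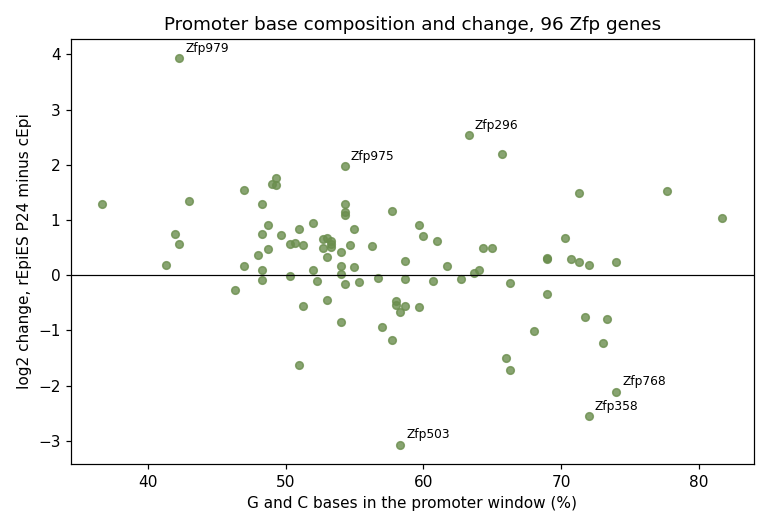
Log2 change, rEpiES P24 minus cEpi, against the percentage of G and C bases in the 300-base promoter window of 96 Zfp genes, 1 point per gene. Most genes under 50% lie above 0, while genes above 65% lie on both sides, with Zfp358 and Zfp768 far below 0.

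Among 7 motifs searched on both strands, the YY1 motif AAGATGGC was in 12 of 141 Zfp windows (8.51%), against 4.83% of windows of genes with a tested probe and 2.75% of all 32851 windows of the table, which can hold several per gene. The windows of Zfp809, Zfp207 and Zfp941 held it. CCAAT was in 46.8% of Zfp windows and 38.6% of windows of tested genes. The octamer motif ATTTGCAT was in 4 Zfp windows (2.84%, against 1.53% of tested genes), those of Zfp296, Zfp207, Zfp120 and Zfp263. The NRF1 motif was in 10.6% of both sets, the E-box CACGTG in 11.3% and 10.7%, and the CRE motif TGACGTCA in 1.42% and 3.25%. The AAGGTCA site of estrogen-related receptors was in 2.13% of Zfp windows and 2.57% of those of tested genes. A match is a run of letters and not a bound site.

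The comparison of cultured epiblast with ES cells asks how far the groups differ in these genes, beside the fibroblast and endoderm markers that also differed. Of 118 Zfp probes, 72 were lower and 18 higher in cEpi (adjusted p under 0.05), while 73.4% of all 9595 probes were called, 40.2% lower and 33.2% higher. At 2-fold or more, 34 Zfp probes were lower and 7 higher, against 14.4% and 11.7% of all probes. The lower set included Zfp979 (-3.71 ± 0.08, adjusted p = 9.16e-10), Zfp609 (-2.93 ± 0.16, adjusted p = 2.04e-07), Zfp992 and Zfp326. Zfp609 associates with the cohesin loader Nipbl, and Zfp326 couples splicing to transcription elongation. The higher set was led by Zfp358 (2.19 ± 0.07, adjusted p = 7.27e-09), Zfp503, Zfp764 and Zfp768. Higher probes made up 20.0% of the Zfp calls, but 62.2% with median scaling and 70.4% with the signal as deposited, against 45.2%, 80.9% and 85.4% for all probes.

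The comparison of early reprogrammed cells with epiblast asks what had changed by passage 4. In P4, 48 Zfp probes were higher and 31 lower than in cEpi, while 65.9% of all probes were called, 36.0% higher and 29.9% lower. At 2-fold or more, 13 rose and 6 fell, against 9.86% and 8.82% of all probes. Beside Zfp979, Zfp992 and Zfp296, Zfp106 rose by 1.71 ± 0.11 on one probe and 0.81 ± 0.07 on the other (adjusted p = 6.95e-07 and 4.88e-06), and Zfp654 by 1.59 ± 0.16 (adjusted p = 1.66e-05). Zfp358 fell by 2.07, Zfp768 by 1.74 and Zfp503 by 1.68. Higher probes made up 60.8% of Zfp calls, 40.9% with median scaling and 22.6% with the signal as deposited. For all probes these shares of calls were near, at 54.7%, 32.7% and 19.3%.

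By passage 24, 63 Zfp probes were higher and 27 lower than in cEpi, while 73.5% of all probes were called, 39.7% higher and 33.8% lower. At 2-fold or more 26 rose and 10 fell, against 14.5% and 14.1% of all probes. Higher probes made up 70.0% of Zfp calls, 53.2% with median scaling and 42.4% with the signal as deposited. For all probes these shares of calls were 54.0%, 40.8% and 29.3%. A fit without the ES arrays, whose spread was widest, called 86 Zfp probes for P4 minus cEpi, against 79 in the main fit. It called 92 for P24 minus cEpi and 67 for P24 minus P4, against 90 and 56. The share of all probes called in that fit was not counted, so these counts are not read as particular to Zfp genes.

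The direct comparison of the passages asks what prolonged culture added. In P24, 41 Zfp probes were higher and 15 lower than in P4, while 45.4% of all probes were called, 21.5% higher and 23.9% lower. At 2-fold or more 1 probe rose, that of Zfp692 (1.02 ± 0.19, adjusted p = 0.00212), whose other probe changed by 0.25 ± 0.09 (adjusted p = 0.045). At that size 2 fell, those of Zfp503 and Zfp608, against 1.52% and 4.01% of all probes. Smaller increases included Zfp326 (0.92 ± 0.2, adjusted p = 0.00529), Zfp871 (0.83 ± 0.16), Zfp941 (0.8 ± 0.15) and Zfp772 (0.78 ± 0.14). Zfp36, or tristetraprolin, which targets AU-rich mRNAs for decay, was at 12.92, 13.06 and 12.94 in cEpi, 13.92, 13.99 and 13.92 in P4, 13.05, 12.95 and 13.03 in P24 and 14.04, 14.23 and 14.38 in ES. P4 and ES lay above the other groups, and the P24 arrays overlapped those of cEpi. P24 minus P4 was -0.93 ± 0.09 (adjusted p = 3.75e-05) and P24 minus cEpi 0.04 ± 0.09 (adjusted p = 0.745). Higher probes made up 73.2% of the Zfp calls, 62.1% with median scaling and 68.4% with the signal as deposited, though only 29 and 19 probes were then called. For all probes these shares of calls were 47.3%, 49.9% and 49.5%.

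**Figure D4:**
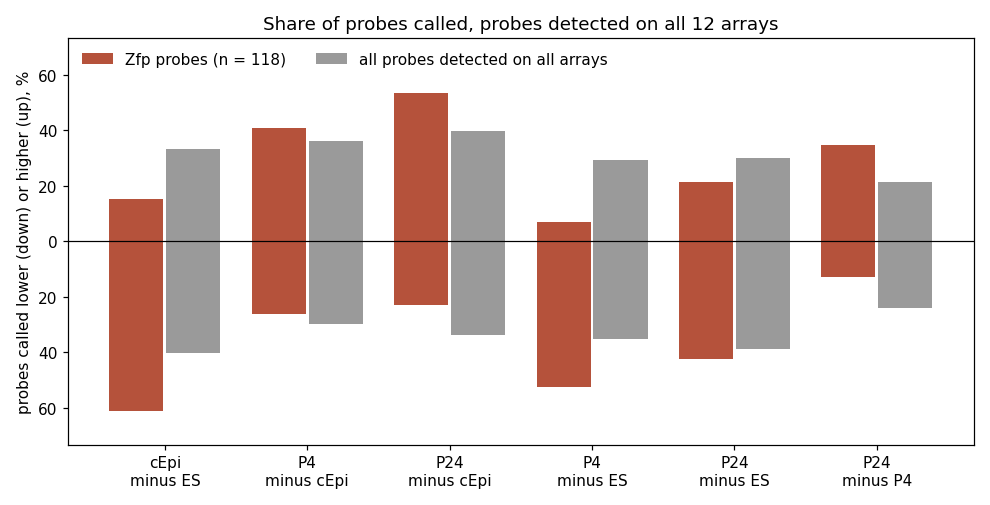
Percentage of the 118 Zfp probes (left bar) and of all 9595 probes detected on all 12 arrays (right bar) called higher (up) or lower (down) in 6 comparisons at an adjusted p under 0.05. The Zfp bars reach further down than those of all probes in the comparisons with ES and further up in the other 3.

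Set against ES, the share of Zfp probes called in the reprogrammed cells was 59.3% in P4 and 63.6% in P24, not above that of all probes. The balance of directions turned with the scaling, for Zfp probes and for all probes alike. In P4, 62 were lower and 8 higher, while 64.6% of all probes were called, 35.3% lower and 29.4% higher. At 2-fold or more, 10 were lower and 2 higher, against 6.59% and 7.73% of all probes. In P24, 50 were lower and 25 higher, while 68.9% of all probes were called, 38.8% lower and 30.1% higher. At 2-fold or more, 12 were lower and 5 higher, against 10.6% and 9.33% of all probes. Higher probes made up 11.4% of the Zfp calls for P4, against 65.0% with median scaling and 53.1% with the signal as deposited, where 40 and 32 probes were called. For P24 the shares were 33.3%, 71.7% and 65.2%. Of the calls over all probes, 45.4%, 79.4% and 75.0% were higher for P4, and 43.7%, 75.7% and 72.4% for P24. The Zfp share lay below that of all probes each time. With median scaling, 26 Zfp probes were higher and 14 lower in P4 than in ES, and 38 were higher and 15 lower in P24.

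Zfp281, a zinc-finger regulator of the transition between pluripotent states, was lower in the other 3 groups than in ES. It was at 15.36, 15.45 and 15.53 in cEpi, 15.76, 15.74 and 15.65 in P4, 15.75, 15.71 and 15.78 in P24 and 17.23, 17.05 and 17.46 in ES. The 2 reprogrammed groups overlapped, lay just above cEpi and were far below ES. P24 minus ES was -1.5 ± 0.1 (adjusted p = 9.76e-07). P24 minus cEpi was 0.3 ± 0.1 (adjusted p = 0.0208), and this small rise was lost, at -0.01, with the signal as deposited. Zfp609 was at 10.98, 10.81 and 10.63 in cEpi, 11.48, 11.54 and 11.9 in P4, 11.99, 12.09 and 12.02 in P24 and 13.79, 13.41 and 14.01 in ES. It rose above cEpi in both passages but remained below ES, by -1.7 ± 0.16 in P24 (adjusted p = 1.2e-05). Its relative Zfp608 was at 12.54, 12.5 and 12.5 in cEpi, 12.06, 11.88 and 11.75 in P4, 10.77, 10.77 and 10.86 in P24 and 12.8, 13.12 and 12.86 in ES. The 4 groups did not overlap, and P24 minus ES was -2.13 ± 0.1 (adjusted p = 1.12e-07). Zfp647 averaged 12.05 ± 0.08 in cEpi, 11.06 ± 0.14 in P4, 11.55 ± 0.24 in P24 and 12.88 ± 0.09 in ES, and Zfp326 averaged 11.23 ± 0.09, 11.8 ± 0.17, 12.72 ± 0.08 and 13.51 ± 0.47 in the same order.

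A pair of neighbouring genes on chromosome 7 differed in direction relative to ES. Zfp764 was at 12.22, 12.46 and 12.26 in cEpi, 12.42, 12.2 and 12.16 in P4, 12.85, 13.01 and 12.71 in P24 and 10.93, 10.87 and 10.98 in ES. Zfp747 was at 13.4, 13.48 and 13.36 in cEpi, 12.93, 12.93 and 12.76 in P4, 13.38, 13.23 and 13.32 in P24 and 14.17, 14.22 and 14.21 in ES. ES thus lay below every other array for Zfp764 and above every other array for Zfp747, though cEpi minus ES for Zfp747 was -0.79 ± 0.07 with quantile normalisation and 0.02 with the signal as deposited. P24 minus ES was 1.93 ± 0.1 for Zfp764 (adjusted p = 2.67e-07) and -0.89 ± 0.07 for Zfp747 (adjusted p = 3.41e-06). Within the file layout shared by P24 and ES, Zfp414 (1.22 ± 0.12, adjusted p = 1.72e-05) and 1 probe of Zfp655 (1.4 ± 0.09, adjusted p = 1.15e-06) were also higher in P24, while the other Zfp655 probe differed by 0.1 ± 0.07 (adjusted p = 0.243).

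The promoter windows of that pair are shown because their sequences are close while their normalised signals differed from ES in opposite directions. From P4 to P24 both genes were called higher, Zfp764 by 0.6 ± 0.1 and Zfp747 by 0.44 ± 0.07. Zfp764 lies at chr7:127406773-127407072 and Zfp747 at chr7:127376001-127376300, both on the minus strand. Capitals mark a reverse match of AAGGTCA in Zfp764, and a reverse CCAAT and the E-box CACGTG in Zfp747.
Zfp764: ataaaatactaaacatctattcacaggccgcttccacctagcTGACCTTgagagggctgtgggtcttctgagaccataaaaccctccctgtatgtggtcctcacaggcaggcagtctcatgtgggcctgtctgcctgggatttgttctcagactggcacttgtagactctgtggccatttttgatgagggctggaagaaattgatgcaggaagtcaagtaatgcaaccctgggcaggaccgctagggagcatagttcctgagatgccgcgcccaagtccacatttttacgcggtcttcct
Zfp747: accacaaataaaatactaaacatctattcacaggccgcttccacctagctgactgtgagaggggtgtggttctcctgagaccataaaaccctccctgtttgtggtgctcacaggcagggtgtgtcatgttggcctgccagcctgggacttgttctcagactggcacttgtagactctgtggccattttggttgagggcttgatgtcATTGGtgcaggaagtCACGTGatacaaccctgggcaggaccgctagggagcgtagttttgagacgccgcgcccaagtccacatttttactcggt
The 2 windows were 86.3% identical over their alignment. Transcripts of near-identical copies can bind each other's probes. Probe sequences were not used here, so how well the probes separate the 2 genes was not tested.

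**Figure D5:**
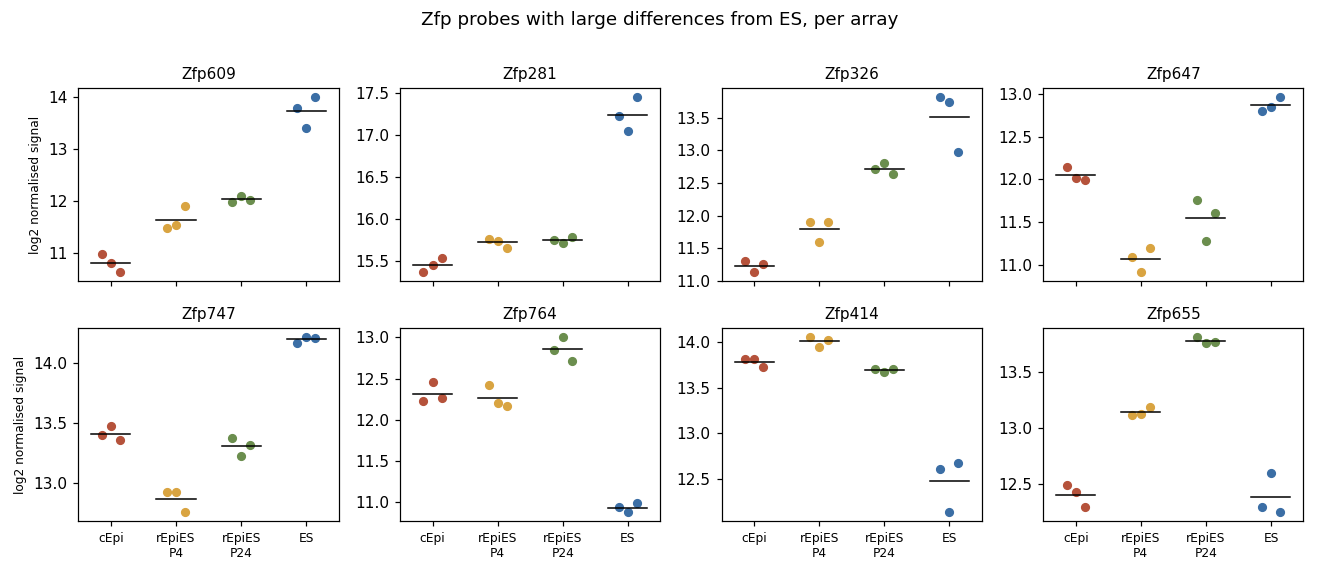
Log2 normalised signal (vertical axes, a separate scale for each gene) of 8 Zfp probes on every array of cEpi, rEpiES P4, rEpiES P24 and ES, with points for arrays and lines for group means. ES arrays lie above all others for Zfp609, Zfp281, Zfp326, Zfp647 and Zfp747 and below all others for Zfp764 and Zfp414, while the Zfp655 probe is highest in P24.

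Over all groups, 109 of 118 Zfp probes (92.4%) changed by the F test of the fit, beside 90.5% of all probes. The mean was lowest in cEpi for 60 of 118 (50.8%, against 35.6% of all probes) and highest in ES for 56 (47.5%, against 31.9%). It was highest in P24 for 33 (28.0%, against 25.8%), in cEpi for 22 (18.6%, against 29.3%) and in P4 for 7 (5.93%, against 13.0%). Tested pair by pair, 42 were lower in cEpi than in each of the other 3 groups (35.6%, against 22.7% of all probes) and 13 were higher in cEpi than in each (11.0%, against 18.4%). With median scaling these counts were 18 and 21 (15.3% and 17.8%, against 7.66% and 26.1% of all probes). ES was higher than each other group for 31 (26.3%, against 17.8%) and lower than each for 4 (3.39%, against 13.3%), those of Zfp146, Zfp276, Zfp764 and Zfp414. With median scaling they were 4 and 14 (3.39% and 11.9%, against 2.94% and 26.1%). The probes with the smallest range of group means were those of Zfp688 (0.1), Zfp74 (0.16), Zfp61 (0.3) and Zfp37 (0.3).

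Members grouped by known role were read from lists chosen with results of these data known, so that their counts are a description. Of the pluripotency network list 5 members were detected on all arrays. In P24, 5 of the 5 were higher than in cEpi, with a median change of 0.49, against 2 of 5 and 0.23 with median scaling, and beside 39.7% of all probes higher. Zfp207, a spindle-assembly factor also tied to the pluripotency splicing programme, rose by 0.94 ± 0.09 in P24 (adjusted p = 1.07e-05) and was above ES by 0.64 ± 0.09 (adjusted p = 0.00022). Of the imprint and retroelement silencing list 2 members were detected on all arrays. Zfp809, which binds a retroviral primer-binding site and recruits Trim28, averaged 11.76 ± 0.05 in cEpi, 12.99 ± 0.06 in P4, 13.38 ± 0.06 in P24 and 12.49 ± 0.19 in ES. P24 exceeded cEpi by 1.63 ± 0.09 (adjusted p = 1.91e-07) and ES by 0.9 ± 0.09 (adjusted p = 2.12e-05). Zfp932, which is reported to repress endogenous retroviruses, rose by 1.15 ± 0.1 in P24 relative to cEpi (adjusted p = 4.13e-06).

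Of 6 members on the list of chromatin corepressor partners, 3 rose and 3 fell in P24 relative to cEpi, beside 39.7% and 33.8% of all probes. Zfp532, which forms a complex with Zfp592, Zfp687 and Zmynd8, rose by 1.78 ± 0.08 (adjusted p = 3.34e-08), whereas Zfp687 fell by 1.23 and Zfp644, a partner of the G9a and GLP methyltransferases, fell by 0.79. Of the 7 list members that act on RNA and protein, 7 were lower in cEpi than in ES (median -0.89), and 3 with median scaling, beside 40.2% of all probes lower. Zfp598, a ubiquitin ligase of collided ribosomes, was 0.9 ± 0.12 higher in P4 than in cEpi (adjusted p = 0.000168) and 0.74 lower in P24 than in P4 (-0.74 ± 0.12, adjusted p = 0.0013). Of 3 lineage regulators, 2 fell in P24 relative to cEpi, Zfp503 and Zfp704 (-0.56 ± 0.17, adjusted p = 0.0157).

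The corepressor machinery of KRAB zinc-finger proteins was read from 21 listed genes, which also include DNA methylation genes such as Dnmt3l and Uhrf1. Of the 21, 14 had a named probe and 11 were detected on all arrays. The counts cover both kinds of gene and were not split. In P24, 9 were higher and 1 lower than in cEpi (median 0.74, and 0.63 with median scaling), beside 39.7% higher and 33.8% lower over all probes. Trim28, the shared corepressor, was at 17.92 ± 0.02 in cEpi, 18.78 ± 0.03 in P4, 18.59 ± 0.1 in P24 and 18.66 ± 0.3 in ES. P4 minus cEpi was 0.86 ± 0.13 (adjusted p = 0.000252), and P24 minus ES -0.07 ± 0.13 (adjusted p = 0.67). Dnmt3l, a cofactor of de novo DNA methylation, rose by 4.68 ± 0.06 in P24 relative to cEpi (adjusted p = 1.89e-11). Uhrf1, which guides maintenance methylation, rose by 2.17 ± 0.06 (adjusted p = 1.26e-09) and was 2.59 ± 0.06 above ES (adjusted p = 1.5e-09).

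By chromosome, 44 of the 172 genes lie on chromosome 7, 26 on 17 and 11 on 13. On chromosome 7, 18 of 29 genes detected on all arrays were lower and 5 higher in cEpi than in ES, with a median of -0.79. Of the 456 probes of any gene there, 33.3% were lower and 39.7% higher, with a median of 0.07. On chromosome 4, 7 of 8 were lower (median -1.15), beside 42.4% of 384 probes of any gene (median -0.09). On chromosome 17, 3 of 14 rose and 5 fell in P24 relative to cEpi (median 0.03), beside 40.1% and 33.7% of 309 probes of any gene (median 0.11). On chromosome 7, 18 of 29 rose and 4 fell (median 0.51), beside 39.3% and 35.5% of all probes there (median 0.08). Runs of at least 3 neighbouring members held 59 genes in 11 runs, 37 of them detected on all arrays, and 77 of the 113 other genes were detected on all arrays. Over those 37 and 77 genes the median was 0.33 and 0.3 for P24 minus cEpi, and -0.02 and 0.26 for P4 minus cEpi. In the run of 7 genes that holds Zfp764 and Zfp747, 3 rose and 2 fell in P24 relative to cEpi, beside 39.3% and 35.5% of all probes on chromosome 7.

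The other C2H2 families Zbtb, Zscan and Zkscan together had 20 probes detected on all arrays. Their median was -0.14 for cEpi minus ES, beside -0.52 for Zfp, and 0.15 for P24 minus cEpi, beside 0.32 for Zfp. For P24 minus P4 it was -0.03, beside 0.21 for Zfp. No test of the difference between the families was made.

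Genes with several probes gave a check within the array. The 2 probes of Zfp106, which encodes an RNA-binding protein needed by motor neurons, were called in opposite directions in P24 relative to ES, at 0.37 ± 0.11 (adjusted p = 0.013) and -0.68 ± 0.07 (adjusted p = 1.57e-05). Both were higher in P24 than in cEpi. The 2 probes of Zfp148 and of Zfp692 shared their sign in every comparison in which both were called. The 2 probes of Zfp655 rose by 1.38 ± 0.09 and 0.49 ± 0.07 in P24 relative to cEpi, but differed relative to ES, at 1.4 and 0.1 for P24 and 0.76 and -0.14 for P4. The 2 probes of Zfp60 were not detected on all arrays, and their values are a description. They disagreed in sign, at 1.38 and -1.06 for P24 minus ES and 0.63 and -1.4 for P24 minus cEpi.

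The 59 members detected in only some groups had to differ in detection, and their values are a description without a test. Zfp459 was at 10.27, 9.77 and 9.93 in cEpi, 12.7, 12.6 and 12.72 in P4, 14.07, 14.21 and 14.02 in P24 and 13.75, 13.78 and 13.67 in ES, with detection on 2 of 3 cEpi arrays. Zfp819, a KRAB protein reported to restrain retroelements in ES cells, averaged 10.06 ± 0.53 in cEpi, 12.64 ± 0.23 in P4, 12.86 ± 0.13 in P24 and 12.75 ± 0.16 in ES. Zfp52 was not detected on any cEpi array and was at least 3.88-fold higher in P24 and at least 8.89-fold higher in ES, where the bound sets the brighter mean against the higher of the dim probe and the lowest detected signal. Zfp84 was detected in cEpi, P4 and P24 and on no ES array, and P24 exceeded ES at least 8.98-fold. Zfp39 (at least 7.81-fold) and Zfp574 (at least 6.73-fold) were likewise not detected in ES, with means of 10.88 and 12.12 in P24. Zfp202 was detected on no P4 array and on all cEpi arrays, and was at least 4.99-fold lower in P4. Zfp672 was detected on no P24 array and on all cEpi arrays, and was at least 5.07-fold lower in P24. These bounds make no allowance for spread between arrays, and for Zfp52, Zfp39, Zfp574 and Zfp672 they equal the observed fold of the means. The SE of the log2 change was 0.61 for Zfp672 in P24 minus cEpi and 0.66 for Zfp202 in P4 minus cEpi. Zfp410 averaged 12.39 ± 0.06 in cEpi, 12.33 ± 0.07 in P4, 12.72 ± 0.09 in P24 and 9.88 ± 1.48 in ES, where it was detected on 1 array.

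Files of cEpi and P4 share one layout and those of ES and P24 another, so that P4 minus cEpi and P24 minus ES lie within a layout. In the other 4 comparisons layout and group cannot be told apart. Of the 177 members, 1 was brighter on all ES and P24 arrays than on all cEpi and P4 arrays by over 1 log2 unit (Zfp459, by 1.06), and 0 were dimmer, against 130 and 206 of all 15235 probes. Such a count cannot show smaller shifts, such as those of the Zfp medians. With quantile normalisation the gap between Zfp probes and all probes was 0.15 and -0.13 in the 2 comparisons within a layout. It was -0.45 for cEpi minus ES, 0.25 for P24 minus cEpi, -0.28 for P4 minus ES and 0.21 for P24 minus P4. The part of the layout in these gaps was not tested.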

How the data were processed

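RNA of 12 mouse cell samples, 3 each of cEpi, rEpiES P4, rEpiES P24 and ES, was measured on Applied Biosystems 1-colour arrays with digoxigenin-labelled cRNA, per the labels' protocols. The deposited files hold a linear signal intensity, with no normalisation between arrays stated, and a log2 column that is quantile-normalised, per the file headers. A deposited S/N score gave detection, and a deposited quality code of another, unstated scale was not used except in an alternative. In the cEpi and P4 files the headers of score and code are exchanged, so columns were read by content. How scanning and background correction were done is not given in the sources used here.

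Symbols came from the platform annotation, in which 14411 probes had 1 symbol and 247 several. All 217 Zfp gene IDs were in the RefSeq gene table (GRCm38.p6), and 0 symbols changed. Log2 values of 15235 probes were fitted in R 4.3.3 with limma 3.58.1 (lmFit, eBayes, two-sided, 12 arrays, no block, 8 residual and 1.53 prior degrees of freedom). A probe was called where its p, adjusted by Benjamini-Hochberg within the comparison, was under 0.05, and the fit was tested on simulated data. Promoters were aligned with Biopython 1.88. Changes are ± SE, levels ± SD. The number of arrays limits the precision.

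Named genes were the 8 largest rises and falls per comparison among called probes detected on all arrays, the 6 largest differences per direction from an undetected group, list members, the smallest ranges, and genes whose probes disagreed. Others, such as Zfp459, Zfp120, Zfp263, Zfp131 and the promoter pair, were chosen after their values were seen. Members and lists were chosen with earlier results of these data known. A split by KRAB box was not made here. Replicate numbers of the labels did not pair the arrays: deviations of same-numbered arrays correlated at -0.035 to 0.037. Alternatives were other scalings, detection filters, fits of 2 groups or without ES, array weights, a replicate block, the quality code, 1 probe per gene and leaving out each array.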

Additional observations from a re-analysis of the deposited data

How the results depend on the processing

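Counts of called Zfp probes kept within 1.5 times of the main count under the alternatives run, with these exceptions. P4 minus ES gave 40 with median scaling and 32 with the signal as deposited, against 70. P24 minus ES gave 46 with the signal as deposited, against 75. P24 minus P4 gave 29 with median scaling, 19 with the signal as deposited and 31 with no detection filter, against 56. Leaving out single arrays gave 87 to 93 for cEpi minus ES, 70 to 84 for P4 minus cEpi, 82 to 92 for P24 minus cEpi, 64 to 70 for P4 minus ES, 67 to 77 for P24 minus ES and 41 to 62 for P24 minus P4. With the replicate number as a block, although the numbers do not pair the arrays, the counts were 90, 77, 89, 67, 74 and 50. The fit without the ES arrays was chosen after seeing the data. The main fit takes 1 spread per probe over all groups, so SE and p-values against the more variable ES arrays may be too small. For cEpi, P4 and P24 minus ES, fits of the 2 groups called 86, 55 and 63 Zfp probes. Array weights gave 84, 59 and 63, against 90, 70 and 75 in the main fit. In the comparisons without ES both gave more calls than the main fit.

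Of 3937 alternative values for 192 named changes, 3745 kept their call and direction, 167 kept the direction but lost the call, and 25 changed sign. For cEpi minus ES the log2 change became 0.19 (median scaling) and 0.32 (as deposited) for Zfp207, 0.08 and 0.21 for Zfp809, 0.38 and 0.5 for Zfp608, and 0.16 and 0.29 for 1 probe of Zfp655. With the signal as deposited it became 0.09 for Zfp647, 0.02 for Zfp747 and 0.03 for Zfp598. For P4 minus cEpi it became -0.02 and -0.22 for that Zfp655 probe and, as deposited, -0.15 for Zfp281, whose P24 minus cEpi became -0.01. For P4 minus ES it became 0.17 and 0.1 for Zfp932, 0.14 and 0.06 for Zfp282, 0.08 and 0.0 for Zfp768, and 0.09 and 0.01 for Zfp36. For P24 minus ES it became 0.09 and 0.03 for Zfp358. These turns follow the shift of all probes that the scaling makes by construction, and other causes were not tested. Dim probes near an S/N score of 3 and the wide spread of the ES arrays limit the small changes.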
